A study of Mus musculus with 4 samples.

Results

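The genes described here are 8 transcription factors of the choice between granulocytes and monocytes: Irf8, Spi1, Klf4, Egr2, Zeb2, Runx1, Gfi1 and Myb. They were chosen by name, with earlier results of these data known. Every probe set of the array that the platform annotation gives to 1 of these symbols alone was taken. That made 22 probe sets of 45101, and 8 genes of 18193 named genes. Where a gene has several probe sets, the one whose mean was highest represents it. RNA came from sorted, unstimulated mouse blood progenitors of wild-type and Trib1-/- animals, all of a mixed strain background (C57BL6J/129SV). Granulocyte monocyte progenitors (GMP) form granulocytes and monocytes. The other population is labelled MDP, with macrophage dendritic cell as its cell type. Trib1 encodes a pseudokinase that directs C/EBP transcription factors to degradation, and Trib1-/- denotes loss of both copies. Sort gates, the design of the allele, and the age and number of animals behind each array were not stated in the labels. Each of the 4 groups has 1 array, so every difference lacks a replicate check and none was tested.

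Blood progenitors hold several lineage factors at once, and the balance between them bears on which cell type follows. PU.1, the ETS factor encoded by Spi1, is needed by both branches. IRF8 binds DNA with PU.1 at composite sites, drives monocyte and dendritic cell genes and restrains granulocyte formation, while GFI1 is a zinc finger repressor required for neutrophils.

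The promoters of 3 of the genes are shown because Irf8 and Klf4 were the factors at least 2-fold higher in wild-type MDP than in wild-type GMP, and Gfi1 had the largest difference of the 8. Of the 8 genes, 7 were matched in the RefSeq promoter table (build GRCm38.p6), all but Spi1. Each window holds the 250 bases before the outermost start site on the strand of the gene, 5′ to 3′, and capitals mark matches to the motifs searched.
Irf8, chr8:120736108-120736357, plus strand: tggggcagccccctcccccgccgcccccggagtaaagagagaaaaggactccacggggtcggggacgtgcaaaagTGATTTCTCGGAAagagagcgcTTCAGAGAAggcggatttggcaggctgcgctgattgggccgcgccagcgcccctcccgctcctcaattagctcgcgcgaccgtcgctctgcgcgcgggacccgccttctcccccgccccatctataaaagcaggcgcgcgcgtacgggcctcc
Klf4, chr4:55532476-55532725, minus strand: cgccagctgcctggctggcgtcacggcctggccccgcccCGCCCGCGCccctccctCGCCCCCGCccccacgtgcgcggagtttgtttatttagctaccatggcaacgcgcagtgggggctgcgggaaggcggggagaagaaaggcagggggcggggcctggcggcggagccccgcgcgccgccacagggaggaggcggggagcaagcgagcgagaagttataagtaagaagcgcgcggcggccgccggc
Gfi1, chr5:107725806-107726055, minus strand: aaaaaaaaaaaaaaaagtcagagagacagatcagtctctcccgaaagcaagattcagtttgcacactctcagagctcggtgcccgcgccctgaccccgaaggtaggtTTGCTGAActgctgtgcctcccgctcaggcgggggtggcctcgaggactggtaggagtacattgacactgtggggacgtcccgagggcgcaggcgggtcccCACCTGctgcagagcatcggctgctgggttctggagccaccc
The 10 motifs, searched on both strands, were GAGGAAGT (PU.1), the composite of an ETS and an IRF site, CACACCC (KLF), GCGNGGGCG (EGR), CACCTG (ZEB), TGTGGT (RUNX), AAATCA (GFI1), TAACNG (MYB), TTGCNNAA (C/EBP) and TTCNNNGAA (the GAS site of STAT factors). The Irf8 window held 2 GAS matches, TTCTCGGAA from 171 to 163 bases and TTCAGAGAA from 153 to 145 bases before the start. Of all 32851 promoter windows of this length, 7.02% held at least 1 GAS match. A GFI1 match from 175 to 170 bases before the Irf8 start overlapped the first GAS match, and 12.4% of all windows held that motif. The Klf4 window held 2 EGR matches, from 211 to 203 and from 194 to 186 bases before the start, a motif found in 4.7% of windows. G and C made up 74.0% of the Klf4 window, where the median over all windows was 52.4%. The EGR share was not taken among windows alike in G and C. The Gfi1 window held a C/EBP match from 143 to 136 bases and a ZEB match from 42 to 37 bases before the start, motifs found in 9.56% and 17.2% of windows. These matches describe letters of the reference sequence, and binding was not measured.

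The deposited values were taken as log2 values, so a difference of 1 is 2-fold. A floor was set at the median of all values, 3.29. Genes that reached it on at least 1 array were used, which held for all 8 factors and for 11653 genes in all. Array medians ran from 3.27 to 3.31. The wild-type GMP array lay farther from the MDP arrays: its correlations over genes with them were 0.875 and 0.883, where those of the Trib1-/- GMP array were at least 0.922. Its correlation with the Trib1-/- GMP array was 0.957, close to the 0.960 between the MDP arrays. All 6 GMP markers (Kit, Cd34, Fcgr3, Fcgr2b, Mpo and Elane) exceeded the floor on each GMP array. Of the MDP markers, Csf1r and Flt3 were at least 2-fold higher in MDP than in GMP in each genotype, and Cx3cr1 differed by 0.34 in wild type and 0.30 in Trib1-/-. Cd34 was lower in MDP, at -1.35 and -0.69. Kit, a marker of that progenitor too, did not reach the floor in MDP (2.43 and 2.69). The probe sets of Trib1 itself gave 4.85 and 4.95 with the wild-type GMP array and 5.19 and 5.10 with its Trib1-/- counterpart, so neither was lower in the GMP array labelled Trib1-/-. With MDP they gave 5.13 and 5.99 for wild type against 4.71 and 5.56 for Trib1-/-. Whether their targets lie in the deleted part is not known here, so they do not check the labels, and each genotype direction rests on the labels. The only spread within reach was that among probe sets of 1 gene. Its SD was 0.54 in wild type and 0.42 in Trib1-/- for differences between MDP and GMP, and 0.37 in GMP and 0.38 in MDP for differences between genotypes. Variation among animals, sorts and arrays is not part of it.

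The first comparison asked which lineage factors set MDP apart from GMP. In wild type, 4 of the 8 genes were at least 2-fold apart, Irf8 and Klf4 higher and Egr2 and Gfi1 lower in MDP, where 16.6% of all genes were (4.16% higher and 12.4% lower). In the arrays labelled Trib1-/-, which share none with the wild-type comparison, 2 of the 8 were, Irf8 higher and Gfi1 lower, against 6.82% of all genes (2.75% higher and 4.08% lower). All 8 genes had the same sign in both genotypes by their representative probe set, as did 18 of the 22 probe sets (81.8%) and 67.0% of all genes. In these bulk samples fewer cells of a kind and less RNA per cell cannot be told apart.

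**Figure D1:**
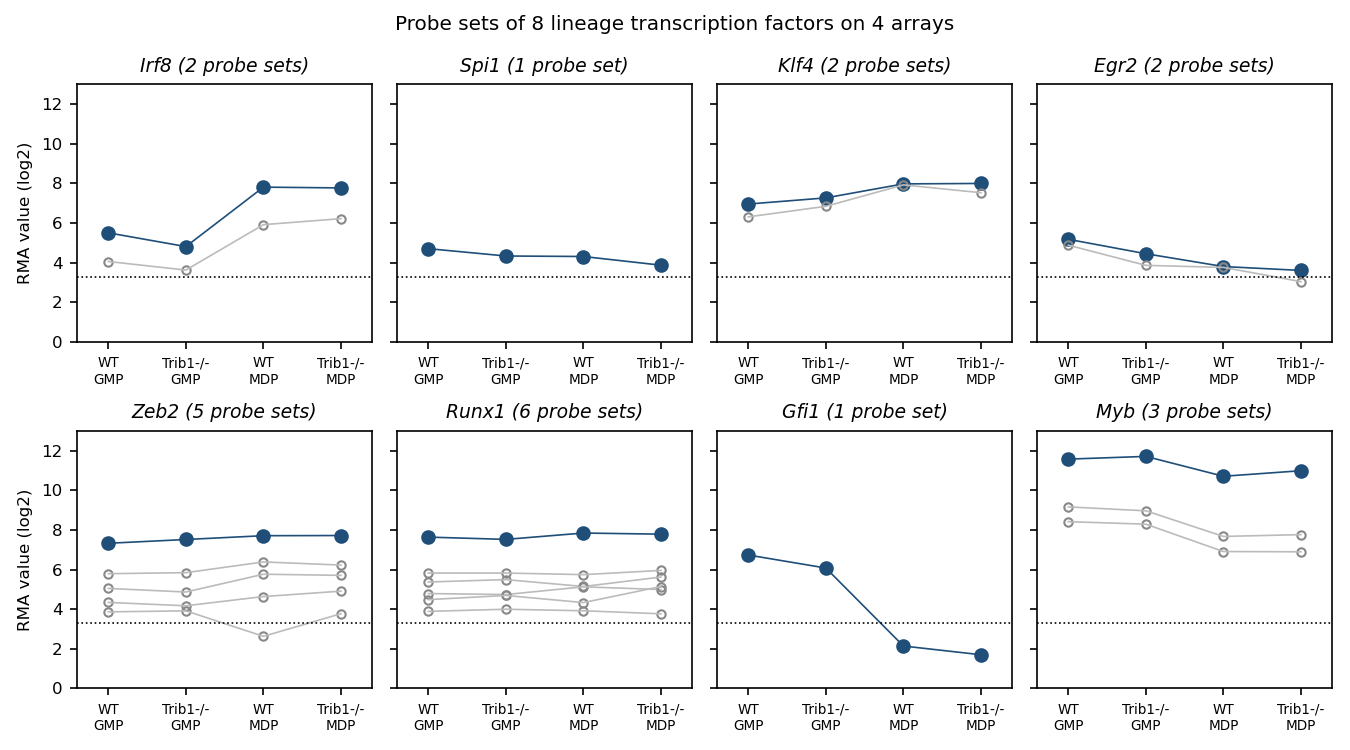
RMA values (log2, vertical axis) of all 22 probe sets of the 8 genes on the 4 arrays (horizontal axis); filled points are the representative probe set, open points the others, lines join 1 probe set, and the dotted line is the floor of 3.29. Irf8 and Klf4 lie higher on both MDP arrays than on both GMP arrays, and Gfi1 lies under the floor in MDP.

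Irf8, the monocyte and dendritic cell factor, read 5.51 (wild type) and 4.81 (Trib1-/-) on the GMP arrays, and 7.81 and 7.77 on the MDP arrays. Within each genotype the MDP array was above the GMP array. The difference was 2.31 in wild type (4.95-fold) and 2.96 in Trib1-/- (7.80-fold). Of the 11653 genes, 24 had a more positive difference in wild type and 6 in Trib1-/-. The second probe set read 4.06 and 3.62 in GMP and 5.92 and 6.22 in MDP, differences of 1.86 and 2.60. Each of these differences was larger than the SD between probe sets.

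Klf4, which encodes a zinc finger factor of monocyte maturation that acts after IRF8, read 6.96 (wild type) and 7.27 (Trib1-/-) on the GMP arrays, and 7.98 and 8.0 on the MDP arrays. The MDP arrays were again above the GMP arrays. The difference was 1.02 in wild type, just past 2-fold, and 0.73 in Trib1-/-, both larger than the SD between probe sets. Its second probe set read 6.31 and 6.85 in GMP and 7.93 and 7.53 in MDP, differences of 1.62 and 0.69. In wild type 446 genes had a more positive difference than Klf4, and in Trib1-/- 697 did.

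Zeb2 encodes a zinc finger repressor used in monocyte and dendritic cell development, and it differed less. Its representative probe set read 7.33 (wild type) and 7.52 (Trib1-/-) in GMP, and 7.71 and 7.72 in MDP. Differences of 0.38 and 0.20 lay within the SD between probe sets. Of its 5 probe sets, 4 were higher in MDP in both genotypes, by 0.20 to 0.84. The fifth read 3.86 and 3.91 in GMP and 2.63 and 3.77 in MDP, so that it lay below the floor in wild-type MDP alone. Its differences were -1.24 and -0.14.

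Egr2, whose product works with NAB corepressors and opposes GFI1, was lower and not higher in MDP. It read 5.18 (wild type) and 4.45 (Trib1-/-) on the GMP arrays, and 3.80 and 3.61 on the MDP arrays. Wild-type GMP was highest, and the MDP values lay near the floor. The differences were -1.38 in wild type and -0.84 in Trib1-/-. The other probe set read 4.88 and 3.86 in GMP and 3.76 and 3.04 in MDP, and gave -1.12 and -0.82. All of these exceeded the SD between probe sets.

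Spi1, the gene of PU.1, read 4.71 (wild type) and 4.34 (Trib1-/-) in GMP, and 4.31 and 3.87 in MDP, on a single probe set. Its MDP values were the lower ones in each genotype, but Trib1-/- GMP and wild-type MDP were almost level. The difference was -0.40 in wild type, less than the SD between probe sets, and -0.46 in Trib1-/-, slightly more than it. In wild type 57.7% of all genes had a difference of this size or more.

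**Figure D2:**
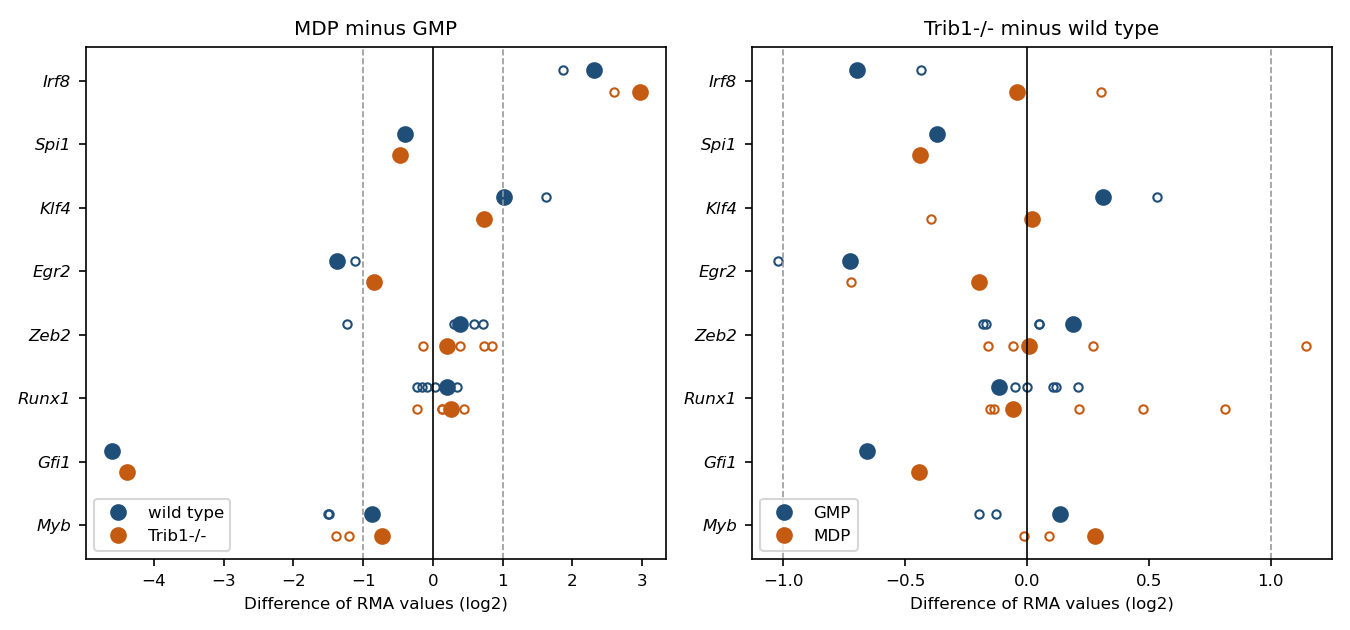
Log2 differences (horizontal axis) of the 8 genes (vertical axis) between MDP and GMP in each genotype (left) and between Trib1-/- and wild type in each progenitor (right); filled points are the representative probe set, open points the others, and dashed lines mark 2-fold. On the left Irf8 and Gfi1 lie outside 2-fold in both genotypes, and on the right no filled point does.

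Gfi1, the repressor needed for granulocytes, had the largest difference of the 8. It read 6.73 (wild type) and 6.08 (Trib1-/-) on the GMP arrays, and 2.14 and 1.70 on the MDP arrays. Both GMP values were well above the floor and both MDP values below it. The difference was -4.60 in wild type (24.2-fold) and -4.38 in Trib1-/- (20.8-fold), figures that rest on MDP values under the floor, which have no certain size. With such values raised to the floor in all genes the differences were -3.45 and -2.79, and 5 of 11653 genes in wild type and 10 in Trib1-/- had a more negative one. Gfi1 was measured by 1 probe set.

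Myb, whose product sustains immature dividing progenitors, was lower in MDP on each of its 3 probe sets. The representative read 11.58 (wild type) and 11.72 (Trib1-/-) in GMP, and 10.71 and 10.99 in MDP, differences of -0.87 and -0.72. Its name carries the suffix _x_at, which marks possible hybridisation to more than 1 transcript. Of the others, the first read 9.17 and 8.97 in GMP and 7.67 and 7.76 in MDP, and the second 8.42 and 8.29 in GMP and 6.91 and 6.90 in MDP. Their differences were -1.49 and -1.51 in wild type and -1.20 and -1.40 in Trib1-/-, past 2-fold in both genotypes. With _x_at and _s_at probe sets left out, Myb joined the genes at least 2-fold apart. That made 5 of 8 in wild type, where 16.4% of all genes were, and 3 of 8 in Trib1-/-, where 6.83% were.

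Runx1, whose product works with its partner CBFB in early blood cells, differed little. It read 7.64 (wild type) and 7.52 (Trib1-/-) in GMP, and 7.84 and 7.79 in MDP, a span of 0.32 over the 4 arrays. The differences of 0.21 and 0.26 were smaller than the SD between probe sets. Its other 5 probe sets gave -0.23 to 0.34 in wild type and -0.23 to 0.45 in Trib1-/-, in both directions.

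**Figure D3:**
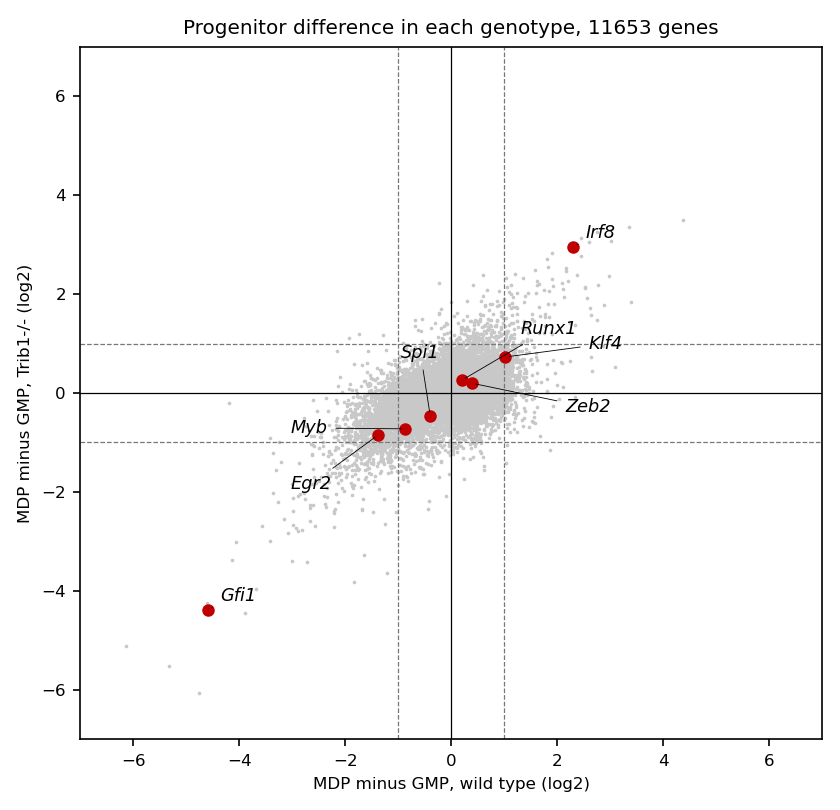
Log2 difference between MDP and GMP in wild type (horizontal axis) and in Trib1-/- (vertical axis) for 11653 genes (grey) and the 8 lineage factors (red); the axes share no array and dashed lines mark 2-fold. Irf8 (2.31 and 2.96) and Gfi1 (-4.60 and -4.38) lie at opposite ends of the cloud.

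Marker lists of blood lineages were read on the same arrays. Of 16 granulocyte markers, 14 were above the floor, and in each genotype MDP was at least 2-fold lower for 10. Their summed level on the linear scale was 7922 (wild type) and 6813 (Trib1-/-) in GMP and 1376 and 1291 in MDP. Elane and Mpo of this list are GMP markers too. Ltf, Camp and Ngp differed little between MDP and GMP, at -0.15, -0.09 and 0.19 in wild type and -0.07, 0.07 and -0.22 in Trib1-/-. Of 11 monocyte markers, 10 were above the floor and 7 were at least 2-fold higher in MDP in each genotype, with sums of 662 and 605 in GMP and 2063 and 2033 in MDP. Dendritic cell markers were at least 2-fold higher in MDP for 2 of 7 in each genotype, with sums from 90.6 to 158. Macrophage markers differed between the genotypes' arrays: 10 of 11 were at least 2-fold higher in MDP in wild type, with a sum of 558 in wild-type MDP, and 1 of 11 in Trib1-/-, with sums from 149 to 181 on the other arrays. Basophil and mast cell markers were at least 2-fold lower in MDP for 7 of 7 in wild type and 4 of 7 in Trib1-/-. Stem and early progenitor markers had 3 of 8 and 2 of 8 at least 2-fold lower, with sums from 483 to 768. Markers of B cells reached the floor for 5 of 9 (sums from 144 to 227). Ebf1 (6.43 to 7.26) and Cd79a (3.44 to 4.62) were above it on every array, and Pax5 was below it on every array. For T and NK cells 4 of 11 did (76.3 to 99.8), and for erythroid cells 2 of 9 (42.3 to 107). With values under the floor raised to it, the macrophage counts were 8 of 11 in wild type and 0 of 11 in Trib1-/-. In Trib1-/- those of granulocyte markers became 9 of 14, of dendritic cell markers 1 of 7 and of basophil and mast cell markers 3 of 7. The part that these cells have in the differences of the 8 factors was not tested.

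The second comparison asked whether the arrays labelled Trib1-/- differed in these factors. None of the 8 was at least 2-fold apart between genotypes in GMP, where 3.64% of all genes were (0.481% higher and 3.16% lower), nor in MDP, where 2.63% were (1.1% higher and 1.53% lower). With 1 array per group this does not show that they were alike. Each genotype comparison shares its arrays with the comparison of MDP and GMP above.

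In GMP, 3 of the 8 factors differed between genotypes by more than the SD between probe sets (0.37). Of all genes, 38.2% had a difference of about that size or more, so the count was near the share of all genes. Egr2 was lower in Trib1-/- GMP by 0.73, and on its other probe set by 1.02, which is past 2-fold. Irf8 was lower by 0.70, and by 0.43 on its other probe set. Gfi1 was lower by 0.66. So factors of both branches were lower on the same array, and 11.9% of all genes had a difference of the size of Irf8 or more. Spi1 differed by -0.37, just within that SD. Klf4 was 0.31 higher, and 0.53 higher on its other probe set. Zeb2 (0.19), Myb (0.14) and Runx1 (-0.11) differed by less than the SD, and the sign of each turned when probe sets were averaged. The median over the 8 was -0.24, and that over all genes -0.06. On the same arrays, 4 of 7 basophil and mast cell markers were at least 2-fold lower in Trib1-/- GMP, and their sum was 488 in wild type and 207 in Trib1-/-. Of 14 granulocyte markers 11 were below 0, with a median of -0.52, where 6432 of all 11653 genes were below 0. The part of these cells in the differences was not tested.

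In MDP the largest genotype differences of representative probe sets were those of Gfi1 and Spi1, both -0.44. Spi1 was above the floor on both arrays. Gfi1 was under the floor on both MDP arrays, so its difference has no certain size. Myb differed by 0.28 and Egr2 by -0.20, within the SD between probe sets, although the other probe set of Egr2 gave -0.72. Runx1 (-0.06), Irf8 (-0.04), Klf4 (0.02) and Zeb2 (0.01) were close to 0, and the sign of the first 3 turned when probe sets were averaged and that of Klf4 and Zeb2 with cyclic loess scaling. Their other probe sets reached 0.81 for Runx1, 0.30 for Irf8 and -0.40 for Klf4. The Zeb2 probe set under the floor in wild-type MDP was 1.14 higher in Trib1-/-. Macrophage markers were at least 2-fold lower in Trib1-/- MDP for 9 of 11 (7 of 11 with values raised to the floor), with sums of 558 and 165, and their part in these differences was not tested.

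**Figure D4:**
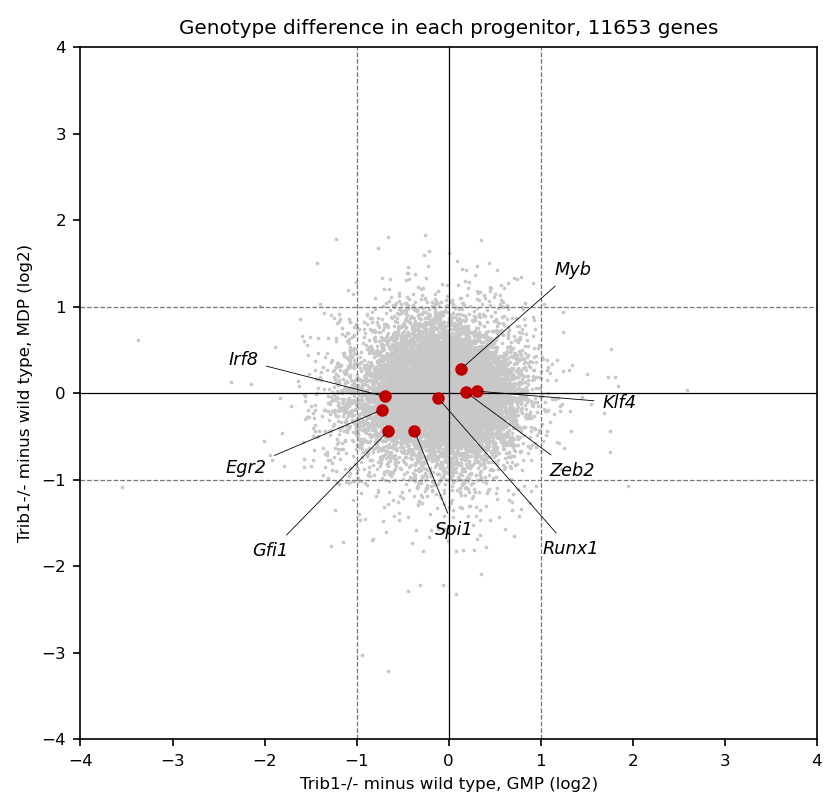
Log2 difference between Trib1-/- and wild type in GMP (horizontal axis) and in MDP (vertical axis) for 11653 genes (grey) and the 8 lineage factors (red); the axes share no array and dashed lines mark 2-fold. All 8 factors lie inside 2-fold, with Egr2 (-0.73), Irf8 (-0.70) and Gfi1 (-0.66) lowest in GMP.

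The sign of the genotype difference was the same in GMP and MDP for all 8 genes by their representative probe set, though the signs of Irf8, Klf4, Zeb2, Runx1 and Myb turned under an alternative in at least 1 progenitor, and that of Gfi1 in MDP was lost (0.0) with values raised to the floor. Over the 22 probe sets it was the same for 16 (72.7%), and over all genes for 47.2%. The difference between MDP and GMP was larger by 0.66 in Trib1-/- than in wild type for Irf8. For Egr2 it went from -1.38 to -0.84, and for Klf4 from 1.02 to 0.73. These figures involve the wild-type GMP array, which lay farther from the MDP arrays than the Trib1-/- GMP array did. Genotype and array cannot be told apart.

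Relatives of the 8 factors, a list of 15 genes, had 12 above the floor. In wild type 3 of the 12 were at least 2-fold higher in MDP and 1 was lower, with a median of 0.55 where all genes had -0.04. Spic, a PU.1 relative of iron-recycling macrophages, was higher by 1.57, Spib, a PU.1 relative of B cells and plasmacytoid dendritic cells, by 1.38, and Klf5, a relative of Klf4, by 1.25. Spic is also on the macrophage list. Zeb1, the relative of Zeb2, differed by -1.08, and by -0.29 on its second probe set above the floor. In Trib1-/- Spib alone, at 1.43, was at least 2-fold apart, and the median was 0.20 where all genes had -0.01. Between genotypes Runx3, a relative of Runx1, differed by -1.08 in GMP, and in MDP Zeb1 differed by 1.01 and Spic by -1.26. The second probe sets of Zeb1 and Spic gave -0.37 and -0.02 there. Egr1, a relative of Egr2, was below 2-fold, at -0.78 and -0.16 between MDP and GMP.

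Partners and cofactors, 18 genes with 16 above the floor, had 1 gene in each direction at least 2-fold apart, the same pair in both genotypes. Tcf4, which encodes the E protein of plasmacytoid dendritic cells, was higher in MDP by 1.33 and 1.04, and its other probe sets above the floor were higher too. Ehmt2, a histone methyltransferase recruited by GFI1, differed by -1.11 and -1.16, with both MDP values under the floor. Raised to the floor, its wild-type difference was -0.99, short of 2-fold. The medians were 0.17 and 0.16. By their representative probe sets, the other GFI1 corepressor genes of the list, named after their values were seen, were below 2-fold and went both ways. Kdm1a (-0.72 and -0.68) and Rcor1 (-0.98 and -0.65) were negative, while Hdac2 (0.72 and 0.41) was positive and Hdac1 gave 0.40 and -0.01. The direction of Hdac2 is not settled, since its other probe sets gave -1.51 and -0.29, and -1.20 and -0.16. Both were past 2-fold in wild type. Cbfb, the gene of the RUNX1 partner, differed by -0.44 and 0.34. None of the 16 was at least 2-fold apart between genotypes by its representative probe set, though another Hdac2 probe set gave -1.21 in GMP.

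Among 25 other myeloid transcription factors, 20 were above the floor. In wild type Bach2, a repressor of B cell and early myeloid cells, was higher in MDP (1.03), and 4 were at least 2-fold lower. These were Gata2, the factor of stem cells and mast cells (-2.12), Lmo2, an adaptor of blood stem cell factors (-1.67), Cebpa, the C/EBP factor of early granulocytes and monocytes (-1.64), and its relative Cebpd (-1.16). In Trib1-/- Gata2 (-1.66) and Cebpd (-1.31) were lower, and Nr4a1, a nuclear receptor of monocytes, was higher by 1.61 but reached the floor on 1 array alone. Raised to the floor, Cebpd (-0.47) and Nr4a1 (0.54) were no longer 2-fold apart in Trib1-/-, where both lay under it on at least 1 of the arrays compared. The medians were 0.13 and -0.01. Between genotypes in GMP, 16 of the 20 were below 0, with a median of -0.37, where 6432 of all 11653 genes were below 0. There 0 of the 20 were 2-fold apart. In MDP 1 was, Tal1, the factor of erythroid and megakaryocyte cells, at -1.18.

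Genes known as targets of the factors were listed from general knowledge, and several stand on more than 1 list. Of 13 genes activated by PU.1, 11 were above the floor. In wild type Csf1r, the receptor gene of the monocyte growth factor M-CSF, was at least 2-fold higher in MDP (1.82). In Trib1-/- Csf1r (1.80), the integrin gene Itgax (1.76) and the adaptor gene Tyrobp (1.01) were, while Csf3r, the receptor gene of the granulocyte growth factor, differed by -1.73. Itgax reached the floor on 1 array alone, and raised to the floor its difference was 0.28. The medians were 0.29 and 0.17.

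Of the genes activated by IRF8, apart from Klf4, 5 were above the floor. Ctss, which encodes the protease cathepsin S and is on the monocyte list as well, was 2.44 and 2.78 higher in MDP, and the medians of the 5 were 0.35 and 0.17. Of the genes repressed by GFI1, apart from Egr2, none of 7 was at least 2-fold apart between MDP and GMP. Their medians were -0.21 and 0.14, beside the -4.60 and -4.38 of Gfi1. Between genotypes in GMP 6 of these 7 were below 0, with a median of -0.57, where 6432 of all 11653 genes were below 0. Id2, listed as repressed by both GFI1 and ZEB2, differed by 0.78 and 0.93 between MDP and GMP, and Cdh1, the other gene of the ZEB2 list, did not reach the floor.

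Of 8 genes activated by MYB, all above the floor, 7 were at least 2-fold lower in wild-type MDP, or 6 with values raised to the floor, where Ada (-1.47) lost the size. Elane, the neutrophil elastase gene, differed by -5.33, Kit, the stem cell factor receptor gene, by -3.58, the growth gene Myc by -2.10 and Mpo, the myeloperoxidase gene, by -1.87. In Trib1-/- the same 4 were at least 2-fold lower, at -5.53, -2.69, -1.49 and -2.06, and Bcl2, a survival gene, was higher by 1.34. The medians were -1.77 and -1.13. Elane, Kit, Mpo and Cd34 (-1.35 and -0.69) are also markers of GMP, so this list does not read MYB alone. Between genotypes in GMP 7 of the 8 were below 0, none by 2-fold, where 6432 of all 11653 genes were below 0.

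Of the genes activated by RUNX1, apart from Spi1 and Gfi1, 5 were above the floor and went both ways. In wild type Csf1r and the growth factor gene Csf2 (1.57) were at least 2-fold higher in MDP, and Elane and Mpo lower. Csf2 reached the floor on 1 array alone, and raised to the floor it differed by 0.11. Of the genes linked to KLF4 in macrophages, 4 were above the floor. Mrc1, the mannose receptor gene and a macrophage marker (2.64), and Cd14, a lipopolysaccharide receptor gene (1.14), were at least 2-fold higher in wild-type MDP, and 0 of 4 were 2-fold apart in Trib1-/-. Cd14 lay under the floor on both GMP arrays, and raised to the floor its difference was 0.45. Between genotypes in MDP, Mrc1 differed by -2.22, where Klf4 differed by 0.02, and by -0.40 on the second Klf4 probe set.

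**Figure D5:**
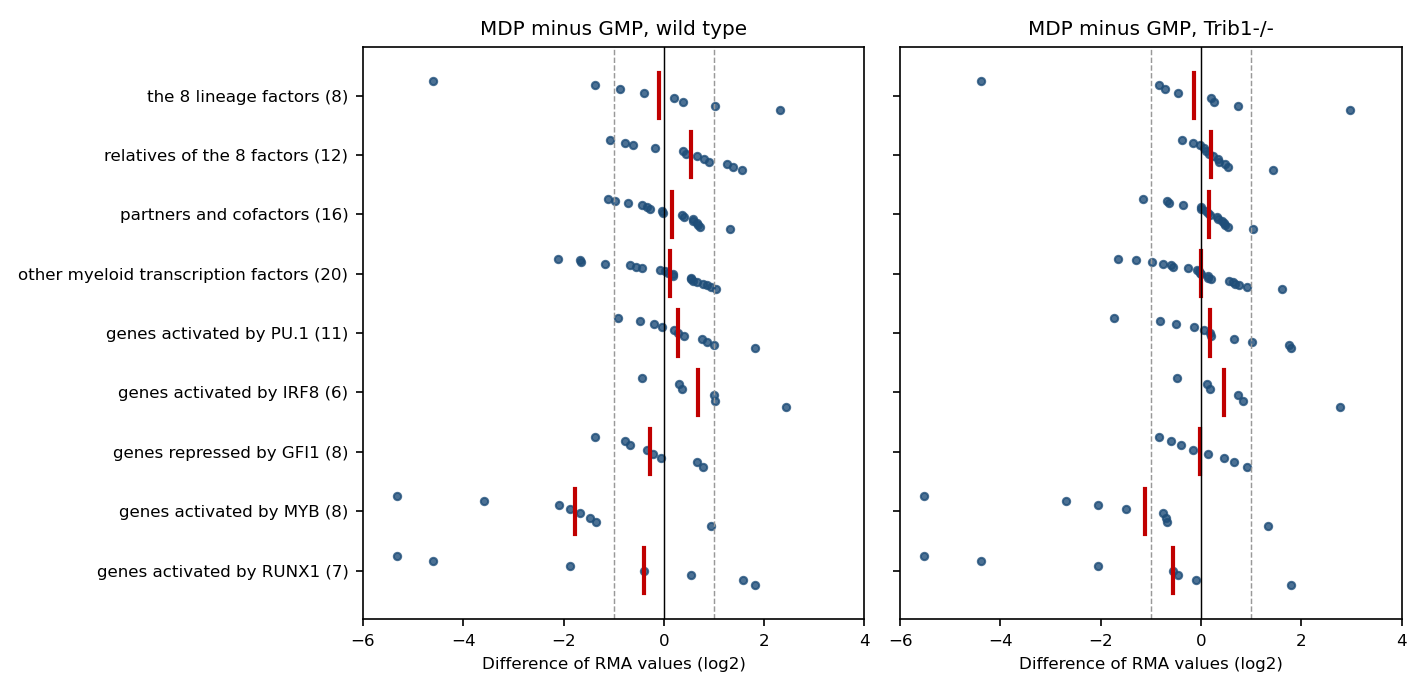
Log2 difference between MDP and GMP (horizontal axis) in wild type (left) and Trib1-/- (right) for the genes above the floor of 9 lists (vertical axis, number of genes in brackets, any of the 8 factors on a list included); points are genes, red bars are list medians, and dashed lines mark 2-fold. Of the lists drawn, the genes activated by MYB have the lowest medians (-1.77 and -1.13).

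The genes with the pattern most like that of each factor were sought for the 5 factors whose values spanned at least 1, among 2836 genes with such a span. Likeness was the mean absolute difference over the 4 arrays after each gene was centred on its own mean. Closest to Irf8 were Ctss (0.132), Tmem109 (0.159) and Itga9 (0.168). Ctss read 5.95 (wild type) and 5.15 (Trib1-/-) in GMP, and 8.40 and 7.93 in MDP, low and high on the same arrays as Irf8. Closest to Gfi1 were Nkg7 (0.126), a granule gene on the granulocyte list, Sgms2 (0.217), a sphingomyelin synthase gene, and Prg2 (0.363), the granule gene of eosinophil major basic protein. Nkg7 read 8.71 and 7.73 in GMP and 4.10 and 3.48 in MDP. The factors with smaller spans had closer neighbours. They were Arhgef11 (0.0127), Six4 (0.0352) and Rnf157 (0.0363) for Klf4, Ndufb6 (0.0185), Pcbp1 (0.019) and Trip13 (0.0218) for Egr2, and Lats1 (0.0225), Hacd3 (0.0317) and Mcm3ap (0.0321) for Myb. Over 4 arrays such likeness is a description.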

How the data were processed

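Trizol-extracted RNA was amplified and biotin-labelled with the NuGEN Ovation system and hybridised to Affymetrix arrays, per the labels' protocols. The submitters' processing notes name RMA, with no version. The scale of the values the authors deposited is unstated, and log2 was inferred from their range (0.14 to 14.5). RMA makes arrays alike, so total RNA per cell cannot be seen. Of 45101 probe sets, 34945 had 1 gene symbol in the platform annotation, 932 several and 9160 none listed, and 64 were controls.

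Differences between arrays were computed with Python 3.11.15 and counted at 2-fold or more, with a calculation tested on simulated data. The number of arrays limits the precision. Alternatives: dropping the floor or setting it at the 75th percentile, values raised to the floor, means of probe sets, leaving out _x_at and _s_at probe sets, cyclic loess (limma 3.58.1, 3 iterations), centring each array, adding 32 before log2, and sizes of 1.5-fold and 4-fold. Named were all 8 factors, listed genes at least 2-fold apart (at most 4 a list), defining markers, Trib1 and the 3 most alike genes, beside a few named for context. Raising listed genes to the floor was an alternative chosen after seeing the data. The 22 lists and the 8 genes were chosen with earlier results of these data known.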

Additional observations from a re-analysis of the deposited data

Results flagged for a closer look

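In these results the genotype difference (Trib1-/- less wild type) had opposite signs in GMP and MDP, each larger than the SD between probe sets. With 1 array per group the contrast between the progenitors was not tested. For the second probe set of Klf4 it was 0.53 in GMP and -0.40 in MDP, a contrast (MDP less GMP) of -0.93, while the representative probe set gave 0.31 and 0.02. The contrast was -1.95 for Spic (0.69 in GMP and -1.26 in MDP), where its other probe set gave 0.52 and -0.02. It was -1.02 for Maf, a macrophage factor (0.42 in GMP and -0.59 in MDP). The next strongest probe set of Maf gave 0.17 and -0.52, the first of these within that SD. The contrast was -1.67 for Csf2, and it was 1.06 for Nr4a1 and 0.90 for Lmo2. Csf2 and Nr4a1 each reached the floor on 1 array alone.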

How the results depend on the processing

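Counts of factors at least 2-fold apart were computed under 10 alternatives in each of the 4 comparisons, and 36 were within 1.5 times the main count. Of the other 4, the count between MDP and GMP in wild type was 2 in place of 4 (Irf8 and Gfi1) with 32 added before log2 (3.16% of all genes), and 2 at 4-fold (1.61%). At 1.5-fold it was 5 in place of 2 in Trib1-/- (22.9%), and between genotypes in GMP 3 in place of 0 (Irf8, Egr2 and Gfi1, all lower), where 18.5% of all genes were. Of the differences of single factors, 179 moved by less than the SD between probe sets and 13 by more, and no difference of at least 2-fold changed sign. Irf8 lay between 1.73 and 2.44 in wild type and 2.06 and 3.01 in Trib1-/-, and Gfi1 between -4.60 and -1.93 and between -4.43 and -1.50. In wild type Klf4 (0.86 to 1.32), Egr2 (-1.41 to -0.57, the latter with 32 added) and Myb (-1.49 to -0.57) crossed 2-fold. Centring each array moved the median of all genes from -0.04 to 0.10 (MDP less GMP, wild type) and from -0.06 to 0.05 (genotypes, GMP), and the share of genes 2-fold apart that were higher from 25.1% to 41.4% and from 13.2% to 30.7%. No paired analysis was possible because no replicate number pairs the arrays, 1 per group. An additive fit of progenitor and genotype was not run. Signal near background limits Gfi1 in MDP, the single probe set of Spi1 and the weaker probe sets of Egr2 and Zeb2.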
